A study of Mus musculus with 6 samples.

Results

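The 8 genes described here encode transcription factors that set the identity of intestinal epithelium: Cdx1, Cdx2, Hnf4a, Hnf4g, Gata4, Gata6, Pdx1 and Isx. They were taken by gene symbol in the GENCODE annotation of GRCm38, and all 8 were found among the 49585 genes of the count tables. The RNA came from tumoroids, that is adenoma cells from the intestine of C57BL/6 mice grown in Matrigel as cultures. Every culture was APC min/+, a mutation of the tumour suppressor gene Apc, and had a Cre recombinase under the Villin promoter, which is active in intestinal epithelium, and all grew in medium with R-spondin, Noggin, EGF, basic FGF and a ROCK inhibitor. The 3 knock-out libraries had the genotype IKKa FL/FL, in which Cre deletes floxed parts of Chuk, the gene of the kinase IKKa, and the 3 wild-type libraries were IKKa +/+. The comparison asks how expression in these tumour cells differs with and without IKKa. The labels give no age, no region of the intestine and no sex. They call the libraries biological replicates without naming separate mice or cultures, so a p-value here covers only library-to-library spread, part of which may be technical.

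Cdx1 and Cdx2 are homeobox factors of the hindgut endoderm, and Cdx2 is the factor that separates intestine from stomach during development. Hnf4a and Hnf4g are nuclear receptors that drive enterocyte genes, among them those of the brush border and of lipid absorption. Gata4 and Gata6 are zinc finger factors, Gata4 being a factor of duodenum and jejunum, Pdx1 is a homeobox factor of pancreas, gastric antrum and duodenum, and Isx is an intestinal homeobox factor that retinoic acid induces and that represses carotenoid uptake.

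Libraries held 20749747 to 31875723 counts. Chuk had 24.4 to 34.9 CPM (counts scaled to a common library size by the TMM method) in knock-out libraries against 95.8 to 106 CPM, so the targeted gene followed the labels, although whole-gene counts cannot show which exons were lost. Mitochondrial transcripts took 2.61 ± 0.738% of knock-out counts and 7.06 ± 0.769% of wild-type counts (SD, n = 3 each). The 4 Y-linked genes Eif2s3y, Ddx3y, Kdm5d and Uty had 4600 to 6589 counts per knock-out library and 0 to 1 per wild-type library, and Xist had 1 to 3 counts against 23082 to 44250. Sex and genotype therefore cannot be told apart, nor can the region of origin, which was not stated. Knock-out replicate 2 differed more from its group than the others did, with a chi-square per degree of freedom of 36.4 and 37.0 against 5.64 between the other knock-out libraries. Genes of chromosome 5, which holds Cdx2 and Pdx1, had a median log2 fold change of 0.40 (685 genes whose mean was 5 CPM or higher). In bulk RNA, fewer cells of a type and less RNA per cell cannot be told apart.

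The stretches of genome just before the starts of Cdx2, Pdx1 and Isx, are shown because these were the members that fell most among the 4 of 8 (with Hnf4a) matched in the RefSeq promoter table. The sequences are from RefSeq on GRCm38.p6, 5′ to 3′ on the strand of the gene, within the 250 bases before the RefSeq start and up to the beginning of the GENCODE exon.
Cdx2 (chr5:147307271-147307499, minus strand): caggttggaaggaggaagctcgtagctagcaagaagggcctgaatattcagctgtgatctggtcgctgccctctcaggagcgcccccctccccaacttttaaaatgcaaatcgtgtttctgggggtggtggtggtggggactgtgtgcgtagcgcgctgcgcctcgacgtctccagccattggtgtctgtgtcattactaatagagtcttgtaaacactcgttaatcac
Pdx1 (chr5:147269847-147269958, plus strand): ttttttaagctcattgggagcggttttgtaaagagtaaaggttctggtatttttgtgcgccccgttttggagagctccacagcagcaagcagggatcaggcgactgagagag
Isx (chr8:74872924-74873172, plus strand): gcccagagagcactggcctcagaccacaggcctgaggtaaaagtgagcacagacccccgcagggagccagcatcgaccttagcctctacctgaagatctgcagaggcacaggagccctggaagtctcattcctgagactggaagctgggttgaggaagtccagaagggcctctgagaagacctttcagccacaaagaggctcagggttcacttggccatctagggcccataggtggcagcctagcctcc
No base is in capitals, because none of the motifs searched was found in these stretches. The letters TTTATNG for Cdx factors, CAAAGTCCA for Hnf4 factors and AGATAA for Gata factors were searched separately, on both strands, over the whole 250 bases. Of 32851 promoter windows of that length, 9.81% held TTTATNG, 0.38% CAAAGTCCA and 9.99% AGATAA. Of the other members, Hnf4a had 2 starts in the table, and the upstream start (position 163506857 on chromosome 2) had 1 AGATAA from 52 to 47 bases before it.

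Of the 8 factors, 7 fell in the knock-out and Gata6 rose by the quasi-likelihood test of edgeR, at a p under 0.05 after Benjamini-Hochberg adjustment over the 13759 genes tested. All adjusted p-values below are from that test. Of all genes tested 57.4% passed, 27.0% falling and 30.4% rising, so a call by itself was common. The median log2 fold change of the 8 was -2.77, against 0.00 over all genes tested, and 5 of the 8 were called and at least 4-fold lower, as were 5.68% of all genes. All 7 that fell were at least 2-fold lower, as were 9.83% of all genes, and a rise of at least 2-fold, as for Gata6, was called for 15.2%. In all 8 the libraries of the genotypes did not overlap, which held for 63.1% of genes tested (30.4% with the knock-out below, 32.7% with it above). All 8 passed the filter on low counts, but Cdx1, Pdx1 and Isx passed it through the wild type alone and Gata6 through the knock-out alone. The calls of these 4 are therefore no independent support, because a difference was favoured by the filter. The other 4, Cdx2, Hnf4a, Hnf4g and Gata4, passed it in both genotypes, and all 4 of these fell.

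**Figure D1:**
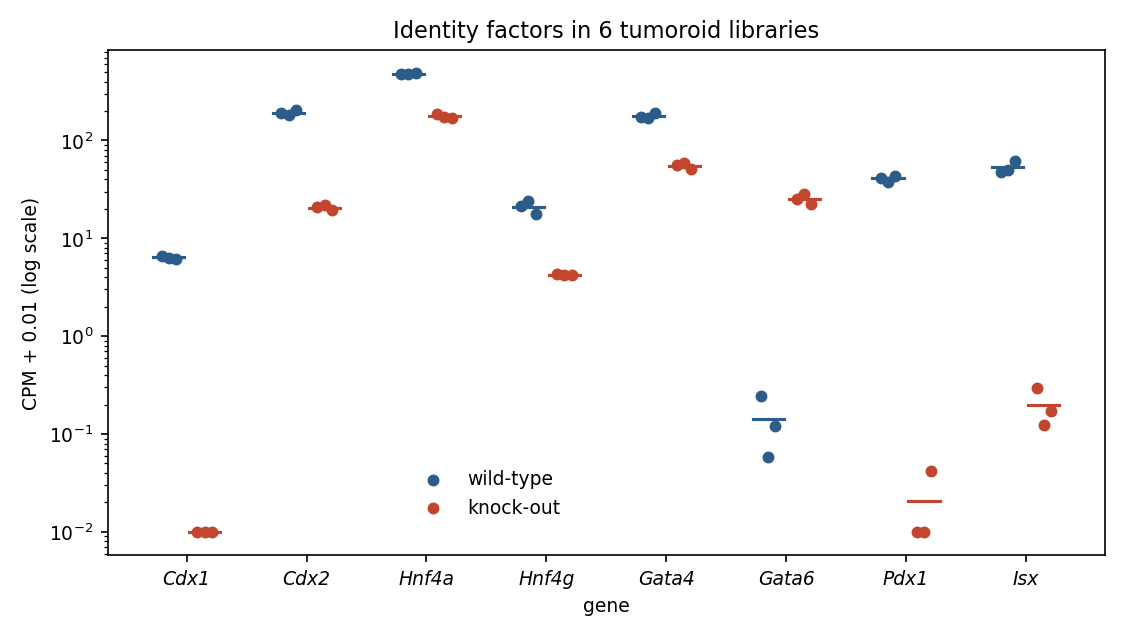
TMM-scaled CPM plus 0.01 on a log scale for the 8 factors, with 1 point per library and a bar at the mean of 3 libraries. Cdx1 was at 0 in all 3 knock-out libraries, Gata6 stood between 22.2 and 28.5 CPM there against 0.0485 to 0.235 in the wild type, and the other 6 factors were lower in every knock-out library than in any wild-type library.

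Cdx2 (ENSMUSG00000029646, GRCm38 chromosome 5, 147300805 to 147307270, minus strand) had 20.7, 21.8 and 19.2 CPM in knock-out replicates 1 to 3 and 192, 183 and 204 CPM in wild-type replicates 1 to 3. Every knock-out library thus lay well below every wild-type library, with little spread inside either genotype. The fall was 9.39-fold, a log2 fold change of -3.23 with a standard error of 0.15 (adjusted p = 4.2e-11). Relative to the other genes of chromosome 5 the log2 fold change was -3.63. Cdx1 (ENSMUSG00000024619, chromosome 18, 61018862 to 61036199, minus strand), the other Cdx gene of intestinal epithelium, had 6.60, 6.35 and 6.21 CPM in the wild type and no count in any knock-out library. That is at least 190-fold lower, the bound being set at 3 counts over the pooled knock-out libraries, or 0.0336 CPM (adjusted p = 7.1e-07). This bound and the counting intervals given for other genes cover counting error only. Cdx4, the third Cdx gene, had no count in any library. The 1833 Cdx2 counts left in the knock-out therefore made up all counts of the Cdx family there.

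Hnf4a (ENSMUSG00000017950, chromosome 2, 163506808 to 163572910, plus strand) was the most abundant of the 8 in both genotypes and changed least. It had 186, 174 and 169 CPM in the knock-out and 478, 478 and 487 CPM in the wild type. The fall was 2.73-fold (log2 fold change -1.45, standard error 0.13, adjusted p = 4.8e-09). Counts per gene do not separate transcripts from its 2 starts, and its antisense gene Hnf4aos (named after its values were seen) had 2 counts in all. Hnf4g (ENSMUSG00000017688, chromosome 3, 3508030 to 3658052, plus strand), its paralog, had 4.26, 4.19 and 4.2 CPM in the knock-out and 21.3, 24.0 and 17.8 CPM in the wild type. The knock-out libraries were nearly equal and the wild-type libraries more scattered. The fall was 4.96-fold (log2 fold change -2.31, standard error 0.24, adjusted p = 1.9e-07).

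Gata4 (ENSMUSG00000021944, chromosome 14, 63198922 to 63271692, minus strand) had 56.6, 58.4 and 50.8 CPM in the knock-out and 174, 170 and 192 CPM in the wild type. It fell 3.24-fold (log2 fold change -1.70, standard error 0.15, adjusted p = 7.4e-09). Gata6 (ENSMUSG00000005836, chromosome 18, 11052064 to 11085635, plus strand), which is normally expressed along the whole intestine and in crypts, went the other way. It had 25.2, 28.5 and 22.2 CPM in the knock-out against 0.235, 0.0485 and 0.111 CPM in the wild type. The wild-type values rest on 7, 1 and 3 counts, and the knock-out values on 798, 762 and 689. The rise was 173-fold (log2 fold change 7.43, standard error 0.77, adjusted p = 1.8e-10), and 285-fold without wild-type replicate 1, which held most of the wild-type counts. Gata5, the remaining Gata gene of the gut, was on the list of partner factors and fell from 46.3 ± 3.91 CPM to no count, at least 1364-fold lower (adjusted p = 1.4e-09). The wild type thus had Gata4 and Gata5 and almost no Gata6, and the knock-out Gata4 and Gata6 and no count of Gata5.

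Pdx1 (ENSMUSG00000029644, chromosome 5, 147269959 to 147275848, plus strand) had 41.2, 38.0 and 43.6 CPM in the wild type. In the knock-out it had 0 counts in replicates 1 and 2 and 1 count in replicate 3. The ratio over the pooled libraries was 3678 (exact 95% counting interval 660 to 145323; adjusted p = 3.8e-10), and without replicate 3 no count was left. Isx (ENSMUSG00000031621, chromosome 8, 74873173 to 74893506, plus strand) had 47.9, 49.8 and 62.1 CPM in the wild type and 0.284, 0.112 and 0.161 CPM in the knock-out, from 9, 3 and 5 counts. Wild-type replicate 3 was the highest and knock-out replicate 2 the lowest. The fall was 274-fold (log2 fold change -8.10, standard error 0.63, adjusted p = 5.1e-11).

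Levels were compared between genes per length, as CPM per kilobase of annotated exon (RPKM). In the wild type the order from high to low was Hnf4a (99.6 ± 1.09 RPKM), Cdx2 (85.3 ± 4.67), Gata4 (45.9 ± 3.03), Isx (29.7 ± 4.32), Pdx1 (19 ± 1.29), Hnf4g (8.01 ± 1.18), Cdx1 (3.65 ± 0.114) and Gata6 (0.0202 ± 0.0145; mean ± SD, n = 3). No neighbours in that order overlapped. Hnf4a stood above 97.2% and Cdx2 above 96.5% of the genes tested. In the knock-out the order was Hnf4a (36.5 ± 1.76 RPKM), Gata4 (14.2 ± 1.02), Cdx2 (9.10 ± 0.574), Gata6 (3.89 ± 0.484), Hnf4g (1.60 ± 0.0150), Isx (0.104 ± 0.0494), Pdx1 (0.00499 ± 0.00864) and Cdx1 at 0, and of these neighbours Pdx1 and Cdx1 overlapped. Cdx2 moved from the second to the third place and Gata6 from the last to the fourth.

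The balance within each family was compared as the ratio of its members. Hnf4a made up 92.6 ± 1.08% of the summed RPKM of Hnf4a and Hnf4g in the wild type and 95.8 ± 0.156% in the knock-out (SD, n = 3 each). Every knock-out library had the higher share, a difference of 0.74 in the log2 ratio of Hnf4a to Hnf4g with 0.5 CPM added to each gene (exact permutation test, two-sided, p = 0.1, the smallest that 3 against 3 libraries allow, and 0.1 adjusted over 3 pairs). Gata4 made up 99.96 ± 0.0328% of Gata4 and Gata6 in the wild type and 78.5 ± 1.00% in the knock-out, and the log2 ratio differed by -7.05 (exact permutation p = 0.1, the same limit). The summed RPKM of Gata4 and Gata6 was 45.9 ± 3.03 in the wild type and 18 ± 1.49 in the knock-out. With the Gata6 rise included it was thus 2.54 times higher in the wild type. That sum leaves out Gata5, at 14.1 ± 1.19 RPKM in the wild type and 0 in the knock-out. For Cdx2 and Cdx1 the sum was 89.0 ± 4.63 against 9.10 ± 0.574 RPKM. Cdx2 made up 95.9 ± 0.284% of that sum in the wild type and 100% in every knock-out library, where Cdx1 had no count. The log2 ratio of Cdx2 to Cdx1 differed by 0.59 with 0.5 CPM added and by -0.28 with 1 CPM added. The sign of this difference thus depended on the CPM added.

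**Figure D2:**
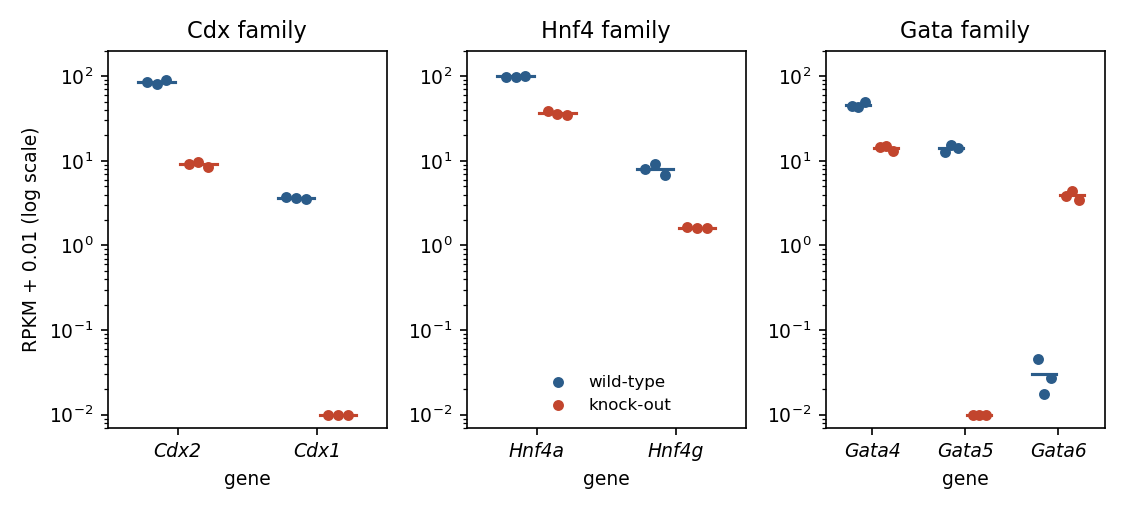
RPKM plus 0.01 on a log scale for the Cdx, Hnf4 and Gata genes, with 1 point per library and a bar at the mean of 3 libraries. Cdx1 and Gata5 were at 0 in the knock-out, Gata6 rose to 3.89 RPKM there, and Hnf4a and Gata4 stayed the most abundant of their families in both genotypes.

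Pdx1 and Cdx2 are near neighbours on chromosome 5, with starts 37.3 kb apart, and the transcripts between and over them fell too. Plut, a noncoding gene antisense to the start of Pdx1, fell from 5.89 ± 1.5 to 0.0786 ± 0.0489 CPM, 70.7-fold (adjusted p = 4.3e-08). Gm27033, a noncoding gene between Pdx1 and Cdx2, fell from 3.44 ± 0.390 CPM to no count, at least 101-fold lower (adjusted p = 7.6e-06). On either side the changes were small and upward, as was the median of chromosome 5 (log2 0.40). Polr1d, a subunit of RNA polymerases, was 1.23-fold higher (log2 0.30, under that median, adjusted p = 0.010, and 0.061 without wild-type replicate 1) and Pan3, a subunit of a deadenylase, was 1.65-fold higher (log2 0.72, adjusted p = 2.8e-05). Within 500 kb of the Cdx2 start, a distance chosen after the values were seen, 11 other genes were tested, of which 5 rose and 4 fell. On chromosome 5 as a whole 58.7% of the 685 genes with a mean of 5 CPM or higher rose and 10.1% fell. The genes in the window were taken without that cut-off, so the shares are not strictly comparable. The 4 that fell were Pdx1, Plut, Gm27033 and, farther away, Rasl11a (log2 fold change -3.36). The largest rise in the window was that of Flt1 (log2 fold change 4.10). Rasl11a and Flt1 were named after their values were seen. Urad, just beyond Cdx2, with 1 knock-out count against 27, was not tested.

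**Figure D3:**
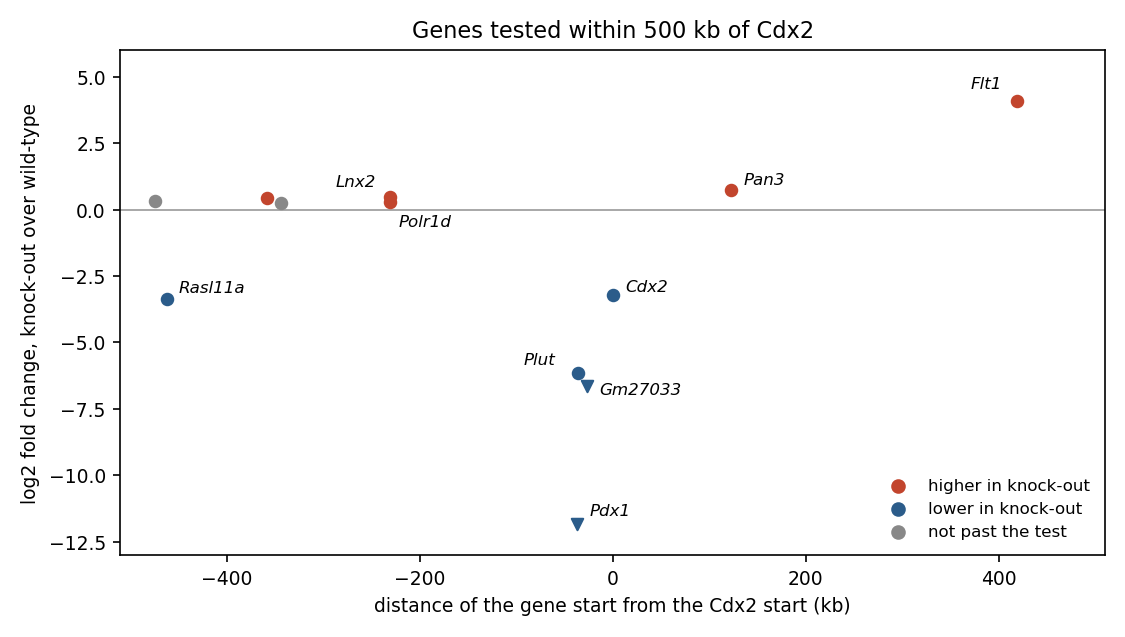
Log2 fold change, knock-out over wild-type, of Cdx2 and the 11 other genes tested within 500 kb of its start, against distance in kb. Triangles stand at the bound for Gm27033 and at the count ratio for Pdx1, and the genes from Pdx1 to Cdx2 lie below 0 between Polr1d and Pan3, which lie slightly above it.

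Around the other members the nearest genes did not share one direction. Beside Hnf4a, R3hdml (2.44 ± 0.993 against 2.12 ± 0.363 CPM, adjusted p = 0.58) and Ttpal (54.1 ± 9.10 against 52.0 ± 3.75 CPM, adjusted p = 0.71) did not pass the test. The same held for Mib1 and Rbbp8 on either side of Gata6 (adjusted p = 0.52 and 0.14, although Rbbp8 passed as lower with upper-quartile scaling, at 0.0465) and for Pex2, the nearest gene tested beside Hnf4g (adjusted p = 0.15). The noncoding gene 1010001N08Rik, whose start faces that of Gata6 (named after its values were seen), had 20 knock-out counts and no wild-type count. Beside Gata4, Neil2 did not pass (adjusted p = 0.35), and Fam167a rose from no count to 31.9 ± 1.55 CPM (adjusted p = 4.1e-09). Slc6a7, next to Cdx1, fell from 271 counts to 3, the ratio being 104 (counting interval 35.3 to 509, adjusted p = 2.6e-06, all 3 counts in knock-out replicate 3), while Csf1r on its other side rose from 0.605 ± 0.724 to 10.9 ± 0.361 CPM (15.9-fold, adjusted p = 2.9e-06, and 46.2-fold without wild-type replicate 1). Beside Isx, Hmgxb4 was 1.24-fold lower (adjusted p = 0.021, lost at 0.082 without knock-out replicate 3, 0.064 without wild-type replicate 1 and 0.073 without wild-type replicate 2).

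Of 19 partner factors, which bind with the members or act beside them in gut epithelium, 17 were tested. Of these 8 fell (27.0% of all genes tested did) and 6 rose (30.4%). Their median log2 fold change was -0.13, close to that of all genes. Besides Gata5, Vdr, the vitamin D receptor, fell 8.85-fold from 65.3 ± 0.411 to 7.34 ± 1.05 CPM (adjusted p = 5e-10). Klf4, a zinc finger factor of differentiating epithelium, rose 3.09-fold to 185 ± 4.64 CPM (adjusted p = 3.7e-09). Smad4, Foxa2 and the Gata cofactor gene Zfpm2, named after their values were seen, did not pass.

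Most of the listed targets of the Cdx factors fell, on a list chosen with earlier results of these data known. The list had 16 genes and 14 were tested: 12 fell (27.0% of all genes did) and none rose, and their median was -2.44 on the log2 scale. Lct, named after its values were seen, was not tested and went the other way, with 32 knock-out counts against 5. Among the 10 that passed the filter in both genotypes, 8 fell and the median was -1.36. The list includes Hnf4a and Isx themselves. Heph, a copper-dependent iron oxidase gene on chromosome X, fell from 75.5 ± 2.38 to 0.218 ± 0.162 CPM (adjusted p = 1.3e-11). Lgr5, the stem cell receptor for R-spondin, fell 41.3-fold (adjusted p = 8.2e-10). Cdh17, the intestinal cadherin (739 ± 60.4 against 814 ± 32.1 CPM, adjusted p = 0.15), and Gpa33, an intestinal surface antigen (297 ± 16.0 against 332 ± 6.31 CPM, adjusted p = 0.072), are also known Cdx targets, and they did not pass the test, although Cdh17 passed with upper-quartile scaling (adjusted p = 0.044) and Gpa33 with that scaling (0.018), without knock-out replicate 2 (0.042) and among protein-coding genes alone (0.044). These 2 were named after their values were seen.

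Listed targets of the Hnf4 factors went both ways. Of 20 listed genes 13 were tested, 8 fell (27.0% of all genes tested did) and 4 rose (30.4%), with a median of -0.89. Among the 11 that passed the filter in both genotypes 6 fell and 4 rose. The genes with the smallest p-values all fell. Myo1a, a brush border myosin, fell 18.8-fold from 228 ± 2.94 to 12.1 ± 0.136 CPM (adjusted p = 2.6e-12). Cdhr5, a cadherin of the links between microvilli, fell from 59.4 ± 1.60 to 0.121 ± 0.158 CPM (510-fold, adjusted p = 1.1e-11, 1660-fold without knock-out replicate 2 and 337-fold without replicate 3), and Vil1, which encodes villin, fell 1.85-fold from 428 ± 16.1 to 231 ± 16.2 CPM (adjusted p = 8.5e-07). The 4 that rose, named after their values were seen, were Apob, Mttp, Mogat2 and Dgat2. Other genes of lipid handling on the list fell, among them Fabp2 (2.85-fold), Acsl5 (1.28-fold) and Npc1l1, and Espn, an actin bundler of microvilli, did not pass (8.47 ± 1.86 against 6.01 ± 0.368 CPM, adjusted p = 0.057, and 0.014 without knock-out replicate 1 and 0.045 with no filter). Apob, the main protein of lipoprotein particles, went from 116 ± 54.4 to 633 ± 277 CPM (adjusted p = 1.2e-04). Its SD in CPM was the largest on the list in both genotypes, though not relative to the mean. Among knock-out libraries replicate 2 was lowest, with 8359 counts against 24850 and 24826. Apoa4, Apoc2, Apoc3 and Fabp1, among the most abundant transcripts of mature enterocytes, had no count in any library.

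Of 8 jejunal genes known to need Gata4, 4 were tested, 3 fell (27.0% of all genes tested did) and 1 rose (30.4%). All 4 had passed the filter through 1 genotype alone. Abcg5, a subunit of the sterol exporter, fell from 29.6 ± 2.45 CPM to no count, at least 890-fold lower (adjusted p = 5.3e-09), and its partner Abcg8 fell from 1525 counts to 5, all in knock-out replicate 1 (adjusted p = 5.8e-10). Npc1l1, the cholesterol importer, fell from 238 counts to 2, both in knock-out replicate 1, the ratio being 137 (counting interval 37.6 to 1141, adjusted p = 3.6e-06). Cubn, an endocytic receptor, rose from 0.259 ± 0.387 to 3.02 ± 1.04 CPM (10.2-fold, adjusted p = 4.8e-04, and 65.8-fold without wild-type replicate 1). Lct, with 32 knock-out counts against 5 in the wild type, was not tested. Of the 5 ileal bile acid genes that Gata4 keeps low in jejunum, Slc10a2, the bile acid importer, was the one tested, and it fell 4.50-fold to 4.51 ± 1.04 CPM (adjusted p = 8.6e-07). Slc51a, a subunit of the bile acid exporter, with 40 knock-out counts and none in the wild type, was not tested.

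The Isx list holds retinoic acid receptor and synthesis genes as well as genes that Isx represses. Of its 7 genes 6 were tested, 4 rose (30.4% of all genes tested did) and 1 fell (27.0%). Scarb1, a lipoprotein and carotenoid receptor that Isx represses, rose 1.79-fold from 69.7 ± 4.42 to 125 ± 5.24 CPM (adjusted p = 2.4e-06). Scarb1 lies on chromosome 5, and its log2 fold change of 0.84 stands beside the chromosome median of 0.40. Bco1, the carotene-cleaving enzyme gene that Isx also represses, stood at 34 knock-out and 20 wild-type counts (adjusted p = 0.61). Of the retinoic acid receptors, Rarg rose 5.24-fold to 95.4 ± 2.73 CPM (adjusted p = 1e-09) and Rara 2.29-fold to 46.3 ± 1.24 CPM (adjusted p = 5.4e-07). Rarb fell from 122 counts to 2, both in knock-out replicate 1 (adjusted p = 1.6e-04). Aldh1a1, which makes retinoic acid, rose 1.76-fold to 323 ± 18.3 CPM (adjusted p = 1.3e-06).

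Regional genes were read beside Pdx1 and Cdx2. Of all genes tested, 27.0% fell and 30.4% rose. Of 10 duodenal genes 6 were tested, 4 fell and 1 rose. Slc40a1, the iron exporter, fell 3.13-fold to 33.6 ± 3.64 CPM (adjusted p = 3.7e-08), and Onecut2, a homeobox factor of the duodenum, rose 7.29-fold from 81.2 ± 16.4 to 591 ± 139 CPM (adjusted p = 5.7e-08). Of 9 colonic genes 3 were tested, 2 fell and 1 rose. Slc26a3, a chloride and bicarbonate exchanger, fell from 215 counts to none (adjusted p = 1.9e-05), and Ggh rose 1.76-fold (adjusted p = 5.5e-05). Of 14 gastric genes 7 were tested, with 5 higher, 1 lower and a median of 2.01 on the log2 scale. Ctse, an aspartic protease, rose from 3.13 ± 1.59 to 306 ± 37.0 CPM (adjusted p = 9.5e-11), and the trefoil peptide gene Tff1 from 0.168 ± 0.235 to 93.3 ± 19 CPM (634-fold, adjusted p = 8.2e-11, 2357-fold without wild-type replicate 2 and 418-fold without wild-type replicate 3). Sox2, a factor of stomach and oesophagus, had no count in any library, Gkn2, Muc6 and Barx1 likewise, and Sox21 fell.

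**Figure D4:**
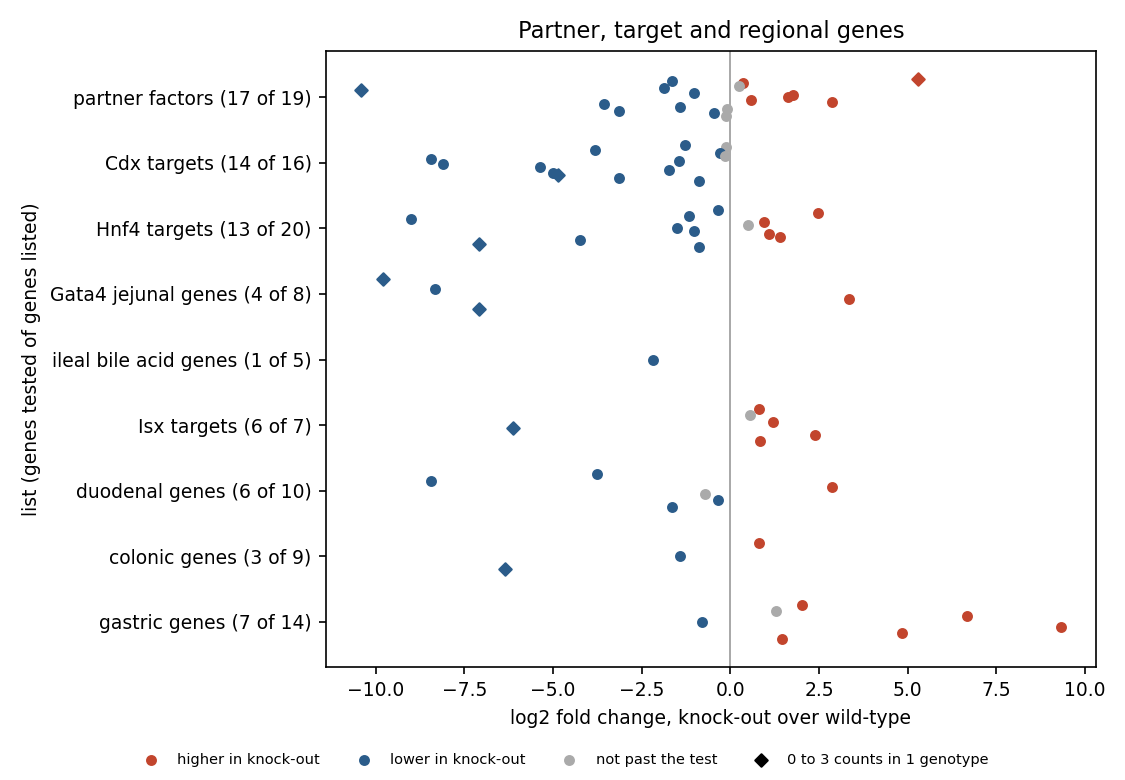
Log2 fold change, knock-out over wild-type, of every tested gene on the lists of partner, target and regional genes, 1 point per gene, with diamonds for genes that had 0 to 3 counts in 1 genotype, set at their bound or count ratio. Every called Cdx target lies below 0 (12 of 14 tested), Hnf4 targets lie on both sides, and 5 of 7 gastric genes tested rose. The list labelled Isx targets also holds retinoic acid receptor and synthesis genes. Of all genes tested, 27.0% fell and 30.4% rose.

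Markers of intestinal epithelium were present in all libraries. The summed level of 9 epithelial markers was 12140 to 14110 CPM in the knock-out and 10610 to 11260 CPM in the wild type. Among them 4 were higher (Krt19 and Krt20 included) and 3 lower, Epcam 2.22-fold (adjusted p = 3.2e-08). For these and the marker counts below, 30.4% of all genes tested were higher and 27.0% lower. With upper-quartile scaling 5 were lower. Of 8 fibroblast markers the knock-out sum was 0.549 to 1.05 CPM and the wild-type sum 0.369 to 0.483, and Col1a1, the one that was tested, rose (59 knock-out counts against 2, adjusted p = 0.0022), while Col3a1, Dcn, Lum and Pdgfrb were at 0. Of 8 leukocyte markers the sum was 23.1 to 23.7 CPM against 3.72 to 6.98. All 3 that were tested rose: Cd68 and Csf1r, which carried the sum, and Ptprc, the general leukocyte marker (39 knock-out counts against 2, adjusted p = 0.0079). Itgam (8 knock-out counts against 46) and Lyz2 (0 against 19) went the other way and were not tested, and with no filter 2 markers were called lower. Cd3e and Adgre1 were at 0. The 6 endothelial markers summed to 0.678 to 1.23 CPM against 17.6 to 23.3, carried by Tek and Vwf, with Kdr and Emcn at 0 and Pecam1 at 7 knock-out and 5 wild-type counts. The 5 smooth muscle markers summed to 0.187 to 0.474 CPM against 9.14 to 18.2, carried by Acta2, with Cnn1 at 0. The 10 pancreas and liver markers summed to 10.5 to 11.4 against 16.5 to 20.1 CPM, carried by Cela1, with Ptf1a, Cpa1, Ins1, Ins2, Nkx6-1 and Serpina1a at 0. Of the 2 tested, Cela1 fell and Afp rose (124 knock-out counts against 42, adjusted p = 0.021). The Afp call was lost without knock-out replicate 2 (adjusted p = 0.091), wild-type replicate 1 (0.067) or wild-type replicate 3 (0.077). The part of these markers in the results for the 8 factors was not tested.

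For each factor, the genes of the whole table whose log2 CPM followed it most closely over the 6 libraries were taken by Pearson correlation, all with r of 0.9996 or more. They were B4galnt2 and Wipf1 for Cdx1, Afap1l1 and Slc5a1 for Cdx2, Nceh1 and Gfm1 for Hnf4a, Cplx2 and Serhl for Hnf4g, and Tmprss4 and Prss32 for Gata4. For Gata6 they were Cyp2s1 and Slc52a3, for Pdx1 Lzts3 and Mep1b, and for Isx Bdh1 and Gm11545. The libraries share 2 genotypes, and 12.3% to 16.7% of genes tested had r above 0.95 with each factor.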

How the data were processed

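RNA was sequenced from 3 knock-out and 3 wild-type tumoroid libraries. Per the labels' protocols, libraries were stranded and polyA-selected, and the submitters' processing notes name STAR and GRCm38. STAR's version, the annotation and how counting treated strand were not given in the sources used. The authors deposited raw whole-number counts for each Ensembl gene, with no normalization. Symbols came from GENCODE M21 (49326 of 49585 identifiers matched).

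The test was edgeR 4.0.16 (R 4.3.3), quasi-likelihood, on genotype alone, after TMM scaling and filterByExpr (minimum count 10, minimum total 15), which kept 13759 genes. Benjamini-Hochberg adjustment ran over all tested genes (threshold 0.05). Standard errors came from the model's weights and quasi-likelihood dispersion. In these libraries 1 CPM equals 20.7 to 31.9 counts. No 2 libraries agreed within sampling noise. On simulated data for this comparison (13515 genes, 200 changed), the test found 64%, 72%, 90% and 98% of the 50 genes each with a 1.5-fold, 2-fold, 4-fold and 8-fold change, and 16 of its 178 calls were wrong. In the real data 57.4% of tested genes were called, a far larger share than was changed in the simulation. The simulated rates therefore need not hold for the real data.

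The members and gene lists were chosen with earlier results of these data known. Named were all members, the nearest tested gene on each side, the 2 most alike genes per member, and up to 4 genes per list with the smallest adjusted p, plus any gene of lists of at most 10. Some genes that this rule names are not reported here. The other genes of longer lists are named as parts of a count or after their values were seen. Alternatives were scaling by DESeq2 1.42.0 size factors, upper quartile or library size, other filters, the DESeq2 Wald test, limma 3.58.1 voom, an adjusted p of 0.01, a replicate term, protein-coding genes, leaving out chromosomes X, Y, 5 and mitochondrial genes, other added CPM for paralog ratios, and leaving out each library.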

Additional observations from a re-analysis of the deposited data

How the results depend on the processing

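All 136 recomputed values of the 8 factors kept their direction and, where tested, their call, over every alternative run. These included the DESeq2 Wald test, limma voom and leaving out each library. Cdx2 ranged from -3.63 (relative to chromosome 5) to -3.18, Hnf4a from -1.50 to -1.42, Hnf4g from -2.42 to -2.22, Gata4 from -1.77 to -1.64, Gata6 from 7.13 to 8.15 and Isx from -8.54 to -7.90 in log2 fold change. Pdx1 and Cdx1, with 1 and 0 knock-out counts, have fitted values that depend on the prior count. The difference in the log2 ratio of Gata4 to Gata6 was -8.55 with 0.1 CPM added and -6.22 with 1 CPM, and that of Cdx2 to Cdx1 was 2.80 with 0.1 CPM and reversed to -0.28 with 1 CPM. Cdx2 and Pdx1 have no value without chromosome 5. Of 510 recomputed list counts, 19 moved by more than 1.5 times, on the epithelial, fibroblast, leukocyte, ileal and pancreas and liver lists.

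Deviations from the group means had r = 0.108, -0.110 and -0.190 between same-numbered libraries 1 to 3, and 0.269 between knock-out replicate 2 and wild-type replicate 3. With 3 libraries per genotype these values cannot decide whether same-numbered libraries shared a batch. The labels do not say that the numbers mark one. With the replicate block, 3959 genes were higher and 3473 lower, against 4182 and 3714 without it, and 7 factors fell and 1 rose as before. Depth limits Cdx1 and Pdx1 in the knock-out and Gata6 in the wild type, where 3 counts over the pooled libraries correspond to 0.0336 and 0.0388 CPM.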
